A study of Homo sapiens with 4 samples.

Results

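The proteins of the cytosolic small ribosomal subunit were followed through ribosome profiling of BJ-Ras-ER cells, as the footprint counts of 32 genes out of 57820 annotated features. The members were chosen by name, as RPSA, 29 genes numbered RPS2 to RPS29, FAU and RACK1, which the annotation of that time called GNB2L1, so the rule uses no measured value, although the group itself was picked with earlier results of these data known. BJ-Ras-ER cells are human BJ fibroblasts that carry hTERT and an oncogenic H-Ras fused to an estrogen receptor domain, so that 4-hydroxytamoxifen switches the oncogene on. The study compared 4 conditions with 1 library each: proliferating cells with DMSO, proliferating cells with GC7, cells in oncogene-induced senescence (OIS) with DMSO, and OIS cells with GC7. All 4 conditions shared the same line with hTERT and the inducible oncogene. OIS was induced with 100 nM 4-hydroxytamoxifen for 12 days. GC7, given at 10 µM for 18 h, blocks deoxyhypusine synthase, the enzyme that makes the first step of the hypusine modification of eIF5A, and DMSO is its solvent.

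The small, or 40S, subunit binds the mRNA and decodes it, and its proteins are needed in equal numbers because each subunit holds 1 copy of nearly all of them. Their mRNAs are among the most translated in a growing cell and usually begin with a 5′ terminal oligopyrimidine (TOP) tract, a C followed by a run of C and T, through which mTOR signalling and LARP1 adjust their translation as a group. Ribosomal protein genes also have many processed pseudogenes, so that a short read from one of these mRNAs can fit several places in the genome.

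The libraries held 3039026 to 6553835 counts, with the fewest in OIS cells with DMSO. Both GC7 libraries held almost no mitochondrial counts, 0.0281% of the total in proliferating and 0.141% in OIS cells, against 2.89% and 12.2% in the matching DMSO libraries, and the part of this difference in the results below was not tested. Mitochondrial counts were therefore left out of the scaling. For 2 libraries the treatment label contradicts the title: proliferating cells with GC7 are labelled DMSO and OIS cells with DMSO are labelled GC7, and each of the 4 comparisons below uses 1 of them. The titles were followed, and the alignment names in the file headers have the same conditions as the titles. No condition has a replicate, so no comparison of a pair of libraries has a test between conditions, and each interval covers counting error only. Since no mRNA was sequenced, a footprint difference cannot be told apart from a difference in mRNA level.

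The genes lie on 16 chromosomes. On the head of the subunit sit the products of RPS3 (ENSG00000149273.10), RPS10 (ENSG00000124614.9), RPS12 (ENSG00000112306.7), RPS15 (ENSG00000115268.5), RPS16 (ENSG00000105193.4), RPS18 (ENSG00000231500.2), RPS19 (ENSG00000105372.2), RPS20 (ENSG00000008988.5), RPS25 (ENSG00000118181.6), RPS27A (ENSG00000143947.8), RPS28 (ENSG00000233927.4), RPS29 (ENSG00000213741.4) and RACK1 (ENSG00000204628.7). The body and the platform hold those of RPSA (ENSG00000168028.9), RPS2 (ENSG00000140988.11), RPS3A (ENSG00000145425.5), RPS4X (ENSG00000198034.6), RPS6 (ENSG00000137154.8), RPS7 (ENSG00000171863.8), RPS9 (ENSG00000170889.9), RPS13 (ENSG00000110700.2), RPS14 (ENSG00000164587.7), RPS15A (ENSG00000134419.11), RPS21 (ENSG00000171858.13), RPS23 (ENSG00000186468.8), RPS24 (ENSG00000138326.14), RPS26 (ENSG00000197728.5), RPS27 (ENSG00000177954.7) and FAU (ENSG00000149806.6). RPS27A and FAU are built differently from the rest, because their proteins are made as fusions with ubiquitin and a ubiquitin-like protein.

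The annotated start of transcription showed what most of these genes share. Of the 26 members with a promoter entry in RefSeq (GRCh38.p14), 20 (76.9%) had a C at the start base followed by at least 4 bases that were C or T, against 5.14% of the 27305 genes in that table, read on the strand of the gene. This strict rule was chosen after the sequences were seen. With a C allowed within 10 bases of the start, 24 members (92.3%) and 38.4% of all genes had such a tract. RPS2, RPS15A and RPS20 were among the members with no entry. The following windows, from 10 bases before the start to 20 from it, are of members whose values are described below, and capitals mark the tract that begins at the start base.
RPSA (chr3:39406710-39406739, plus strand): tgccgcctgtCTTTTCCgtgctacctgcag
RPS6 (chr9:19380217-19380246, minus strand): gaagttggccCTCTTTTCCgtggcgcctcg
RPS12 (chr6:132814559-132814588, plus strand): cggatgaggcCTCTTTCCCTgccgccgccg
RPS19 (chr19:41860245-41860274, plus strand): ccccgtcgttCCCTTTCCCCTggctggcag
RPS23 (chr5:82278335-82278364, minus strand): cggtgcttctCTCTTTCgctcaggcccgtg
FAU (chr11:65122115-65122144, minus strand): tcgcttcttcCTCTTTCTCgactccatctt
RACK1 (chr5:181243887-181243916, minus strand): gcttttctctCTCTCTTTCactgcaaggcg
The next windows are of members without a tract at the annotated start base. RPS29 and RPS4X had no tract within 10 bases either, while in RPS15 one, in capitals, begins within those 10 bases.
RPS29 (chr14:49598691-49598720, minus strand): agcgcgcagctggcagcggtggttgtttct
RPS4X (chrX:72277229-72277258, minus strand): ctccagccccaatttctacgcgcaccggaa
RPS15 (chr19:1438386-1438415, plus strand): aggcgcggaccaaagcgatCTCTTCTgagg

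Footprint levels differed widely among genes whose proteins are needed in equal numbers. In counts per 1000000 after scaling (CPM) and per kilobase of coding sequence, the mean over the 4 libraries ran from 660 for RPS21 (hg19 chr20:60962172-60963576) down to 1.94 for RPS28 and 0.566 for RPS3A, with a median of 171 over the 31 members whose coding length was known. RACK1, a scaffold protein that links signalling kinases to the ribosome, took by far the most counts, 6097 in proliferating cells with DMSO, 5996 with GC7, 3115 in OIS cells with DMSO and 5843 with GC7. It made up 24.4% of all small subunit counts in proliferating cells with DMSO (95% exact interval 23.8 to 24.9%). RPS3A had 2, 10, 0 and 0 counts in the same order, and RPS28 had 4, 4, 0 and 1. A count of 0 allows up to 3. Both stayed under the minimum of 40 counts in all, and the other 30 members were tested among 11128 nuclear features that passed it.

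The level of a member went with the number of its pseudogenes in RefSeq, which ranged from 3 for RACK1 to 74 for RPSA. Across 31 members, the Spearman correlation between that number and the level per kilobase of coding sequence was -0.54, a description over genes that share the same 4 libraries. The median level was 283 CPM per kilobase in the 15 members with at most 10 pseudogenes and 44.9 in the 14 members with at least 20. RPSA, also known as the laminin receptor, stood at 54.9, RPS2 at 35.0 and RPS26 at 11.2, all with more than 50 copies. RPS28, with 9 copies, was also low, and RPS24, with 20, was high at 587, so the number of copies did not order all members. Counting used the default of featureCounts, which drops reads with several alignments, so levels of different members compare what could be counted rather than translation. A ratio between libraries of 1 member is taken over the same annotated exons in both. Whether the countable positions within them were also the same was not tested. The exons of 21 members overlapped another feature, over at most 28.9% of their bases (RPS10), and reads in such stretches were dropped as well.

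**Figure D1:**
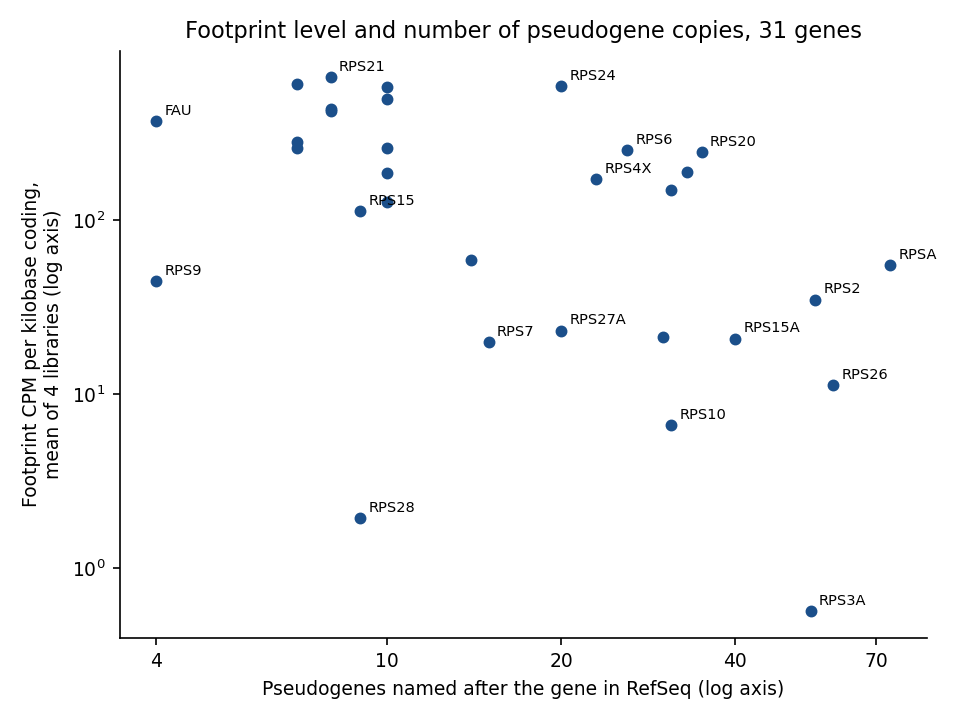
Footprint level in CPM per kilobase of coding sequence, mean of 4 libraries (vertical log axis), against the number of pseudogenes that RefSeq names after the gene (horizontal log axis), 1 point per gene for 31 genes. Members with at most 10 pseudogenes have a median of 283 and those with at least 20 one of 44.9, while RPS28 is low with 9 copies.

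As a group, small subunit genes took the largest share of footprints in proliferating cells with DMSO. The 32 members together held 0.596% of nuclear counts there (25037 counts, 95% exact interval 0.589 to 0.604%), 0.367% in proliferating cells with GC7 (0.362 to 0.372%), 0.344% in OIS cells with DMSO (0.337 to 0.351%) and 0.424% in OIS cells with GC7 (0.418 to 0.430%). The intervals do not overlap. Without RACK1 the shares were 0.451%, 0.276%, 0.227% and 0.303% in the same order. Member by member, 22 of the 30 tested genes had their highest scaled level in proliferating cells with DMSO and none had its lowest there, while 22.5% of all tested features were highest in that library. The lowest scaled level was in proliferating cells with GC7 for 17 members, in OIS cells with DMSO for 8 and in OIS cells with GC7 for 5. For the lowest library no share of all features is given, so these counts have no background. They also depend on the scaling, because the summed share of nuclear counts, with or without RACK1, was instead lowest in OIS cells with DMSO.

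**Figure D2:**
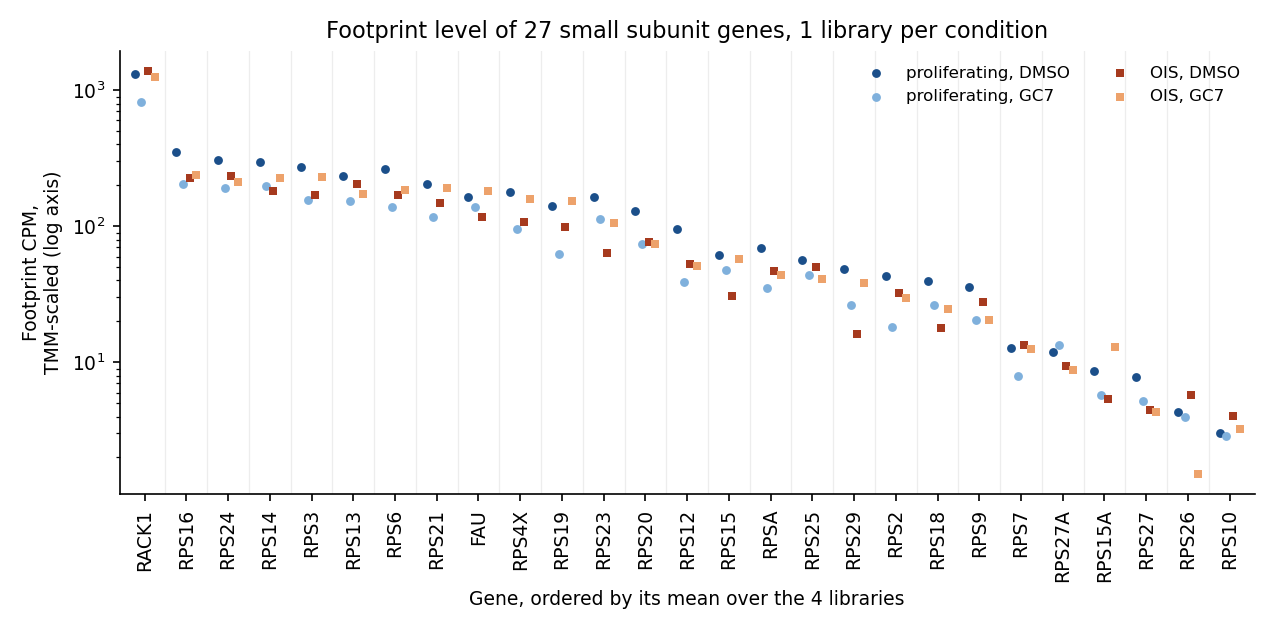
TMM-scaled footprint level in CPM (log axis) of 27 small subunit genes, ordered by their mean, with 1 point per library: circles for proliferating and squares for OIS cells, dark for DMSO and light for GC7. In 19 of these genes the dark circle of proliferating cells with DMSO is the highest point.

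In proliferating cells, nearly all small subunit genes had lower scaled footprint levels with GC7 than with DMSO. The log2 ratio of GC7 to DMSO was below 0 for 29 of the 30 members, against 48.9% of all tested features, and its median was -0.69 (1.61-fold lower), against 0.01 over all features. The counting interval lay below 0 for 25 members (19.4% of all features) and above 0 for none (20.1% of all features). The 3 members RPS12, RPS2 and RPS19 were at least 2-fold lower with an interval that excluded equal levels (2.24% of all features), and no member was at least 2-fold higher (3.34% of all features). At a 1.5-fold limit, 19 members were lower (6.87% of all features). Head proteins had a median of -0.78 (13 tested) and body and platform proteins one of -0.69 (17 tested).

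RPS12 (hg19 chr6:133135580-133138703), a head protein, had 439 counts in proliferating cells with DMSO and 285 with GC7, or 95.2 and 38.9 CPM after scaling. Its log2 ratio of -1.29 (95% counting interval -1.51 to -1.07) was the lowest of all members. In OIS cells the counts were 118 with DMSO and 238 with GC7, or 52.6 and 51.3 CPM, so only the proliferating DMSO library stood high. RPS2 (hg19 chr16:2012053-2014861), which lines the path of the mRNA into the subunit, had 199 and 134 counts in proliferating cells with a ratio of -1.23 (-1.56 to -0.91), and 72 and 138 in OIS cells. RPS19 (hg19 chr19:42363988-42376994), a head protein often mutated in Diamond-Blackfan anaemia, had 654 and 461 counts, with a ratio of -1.17 (-1.35 to -0.997). Those 3 genes and RPSA, at -0.97 (-1.21 to -0.73), formed the low end.

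RPS6, whose phosphorylation by S6 kinase is a common readout of mTOR signalling, had 1217 counts in proliferating cells with DMSO and 1011 with GC7, a log2 ratio of -0.93 (-1.06 to -0.81). RPS3, which stands at the entry of the mRNA channel, had 1257 and 1138 counts and a ratio of -0.81 (-0.93 to -0.69). RACK1 had a ratio of -0.69 (-0.74 to -0.64). These ratios lie within the main range of the group. The ratios nearest to 0 were those of FAU and of RPS26, RPS10 and RPS27A, which have few counts. FAU, with 752 and 1010 counts, had a ratio of -0.24 (-0.38 to -0.10), RPS26 one of -0.15 (-1.002 to 0.77) and RPS10 one of -0.11 (-1.13 to 1.01). RPS27A, with 55 and 99 counts, was the only member above 0, at 0.17 (-0.31 to 0.68), an interval that includes equal levels.

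In OIS cells, scaled levels with GC7 lay on both sides of those with DMSO. The median log2 ratio was 0.10 (1.07-fold higher), against -0.01 over all features. This median depended on the setting, with 0.29 under total-count scaling, 0.26 with a filter of 400 counts, 0.28 in members with at most 10 pseudogenes and 0.046 with a filter of 1 count. Of the members, 16 lay above 0 and 14 below, where 49.1% of all features lay above 0, and with total-count scaling, which raised the median of all features to 0.18, the split was 25 to 5. The interval lay above 0 for 13 members (15.3% of all features) and below 0 for 4 (18% of all features), namely RPS13, RPS24, RACK1 and RPS26, of which RPS24 at 0.03 and RACK1 at 0.05 turned sign with total-count scaling. At least 2-fold higher were RPS15A and RPS29 (3.32% of all features), at least 2-fold lower was RPS26 (2.82% of all features), and 6 members were at least 1.5-fold higher (7.65% of all features). Of the 3 members past the 2-fold limit, 1 was left with a filter of 400 counts and 0 among those with at most 10 pseudogenes. The median was 0.07 in head proteins and 0.13 in body and platform proteins.

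RPS29 (hg19 chr14:50043390-50065408), a small zinc-binding head protein, had 36 counts in OIS cells with DMSO and 178 with GC7, or 16.1 and 38.4 CPM. Its log2 ratio of 1.23 (0.73 to 1.82) was the highest. RPS15A (hg19 chr16:18792617-18801705) had 12 and 60 counts with a ratio of 1.18 (0.36 to 2.30). Both rest on few counts in the DMSO library. RPS15, which is close to the decoding site, had 69 and 265 counts and a ratio of 0.88 (0.51 to 1.30), the third highest. At the low end, RPS26 (hg19 chr12:56435637-56438116), a platform protein near the exit of the mRNA, had 13 and 7 counts with a ratio of -1.86 (-3.51 to -0.51). RPS9 followed with 62 and 95 counts at -0.44 (-0.91 to 0.05) and RPS10 with 9 and 15 counts at -0.37 (-1.60 to 1.06), and both intervals include 0.

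Among the members with special roles, the log2 ratio of GC7 to DMSO in OIS cells was 0.63 (0.43 to 0.84) for FAU with 261 and 839 counts, and 0.44 (0.27 to 0.62) for RPS3 with 380 and 1068 counts. RPS6, with 378 and 856 counts, had a ratio of 0.13 (-0.05 to 0.31), RPSA, with 105 and 202 counts, one of -0.11 (-0.45 to 0.25), and RPS27A, with 21 and 41 counts, one of -0.12 (-0.88 to 0.75). RACK1, the member with the most counts, had a ratio of -0.14 (-0.20 to -0.08). The intervals of FAU and RPS3 lay above equal levels, and those of RPS6, RPSA and RPS27A included them. The direction of RACK1 turned with total-count scaling, to 0.05.

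The GC7 response was higher in OIS than in proliferating cells for 27 of 30 members, and the median difference of the log2 ratios, OIS minus proliferating, was 0.87, against -0.02 over all features, of which 48.1% lay above 0. The counting interval of the difference lay above 0 for 23 members (14.2% of all features) and below 0 for 1, RPS26 (17.4% of all features). A total of 14 members had a difference of at least 1, or 2-fold, with an interval above 0, against 3.95% of all features. The difference was 2.12 (1.54 to 2.70) for RPS29, 1.80 (1.53 to 2.08) for RPS19, 1.78 (0.72 to 2.84) for RPS15A and 1.47 (1.22 to 1.73) for RPS4X. The lowest were RPS26 at -1.70 (-3.19 to -0.21), RPS27A at -0.29 (-1.17 to 0.60) and RPS10 at -0.26 (-1.74 to 1.23). The 24 members with at least 400 counts in the 4 libraries had a median difference of 1.06, against -0.02 over all features with as many counts. All of these members lay above 0, but the limit leaves out RPS26, RPS27A and RPS10, the only members below 0. At this limit no share of all features above 0 is given, so that count has no background. No test of this difference between conditions exists with 1 library each.

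**Figure D3:**
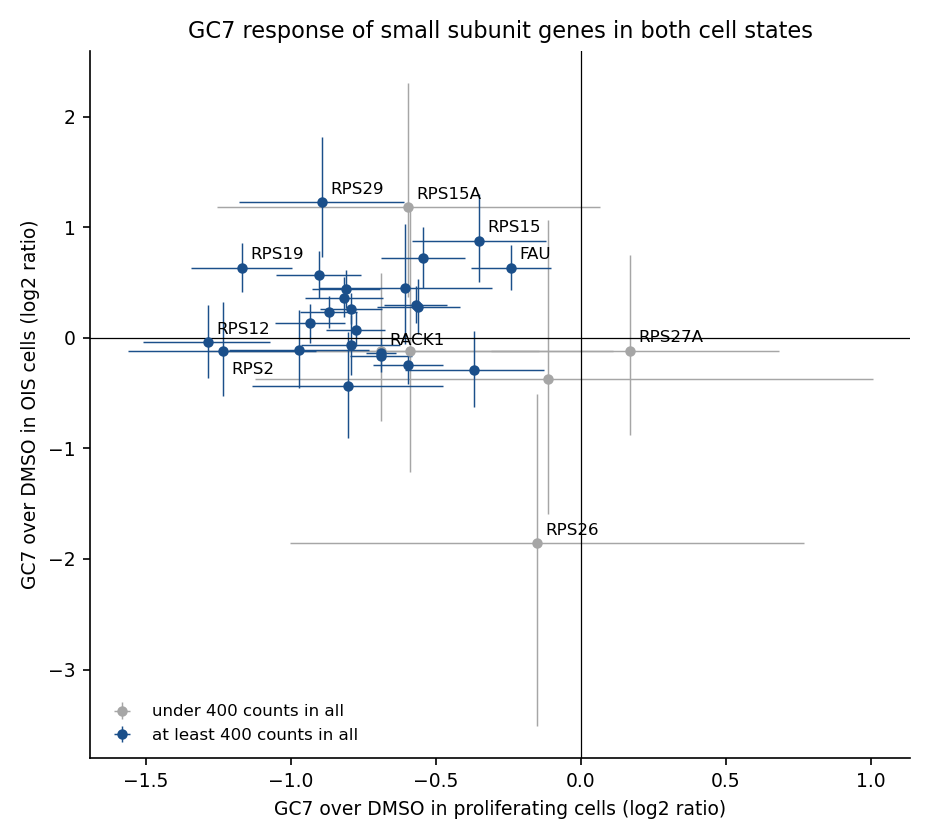
Log2 ratio of GC7 to DMSO in proliferating cells (horizontal) and in OIS cells (vertical) for the 30 tested small subunit genes, with 95% counting intervals as bars, blue for genes with at least 400 counts in all and grey for fewer. The points lie left of 0 for 29 genes and on both sides of 0 vertically, with RPS29 at 1.23 and RPS26 at -1.86.

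In DMSO, most small subunit genes had lower scaled levels in OIS than in proliferating cells. This comparison shares the proliferating DMSO library with the GC7 comparison above, and the members' values in both are not independent. The median log2 ratio of OIS to proliferating cells was -0.58 (1.5-fold lower), against 0.01 over all features, and 26 of 30 members lay below 0 (49.7% of all features). With total-count scaling, which lowered the median of all features to -0.38, the members' median was -0.97. The intervals of 21 members lay below 0 (27% of all features) and that of 1, RACK1, above it (29.1% of all features). RPS29, RPS23 and RPS18 were at least 2-fold lower, which does not exceed the share among all features (12.1%). No member was at least 2-fold higher (14.2% of all features), and 13 were at least 1.5-fold lower (20.6%). The number of members past the 2-fold limit depended on the setting, with 15 under total-count scaling, 5 with upper quartile and 0 among members without exon overlap. No share of all features is given for these settings, so these counts have no background. Upper quartile, like total count, lowered the median of all features, to -0.11. Among features with at least 400 counts the SD of the log2 ratios was 1.02 over all 6326 and 0.37 over the 24 members.

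RPS29 had 225 counts in proliferating and 36 in OIS cells with DMSO and a log2 ratio of -1.57 (-2.15 to -1.09). RPS23 (hg19 chr5:81569177-81574396), which reaches into the decoding centre, had 763 and 143 counts and a ratio of -1.37 (-1.64 to -1.12). RPS18, a head protein at the interface with the large subunit, had 184 and 40 counts and a ratio of -1.13 (-1.69 to -0.66). RPS6 stood at -0.64 (-0.82 to -0.48), RPS3 at -0.68 (-0.85 to -0.52), RPSA at -0.55 (-0.89 to -0.24), FAU at -0.48 (-0.69 to -0.28) and RPS27A at -0.31 (-1.15 to 0.40). RACK1 stood apart from them with a ratio of 0.07 (0.01 to 0.13), which turned to -0.32 with total-count and -0.04 with upper-quartile scaling. Its part of all small subunit counts was 34.0% (33.0 to 34.9%) in OIS cells with DMSO. The other members above 0 were RPS7 at 0.09 (-0.62 to 0.72), RPS10 at 0.46 (-0.99 to 1.71) and RPS26 at 0.46 (-0.71 to 1.498), each with an interval across 0.

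With GC7, most members had higher scaled levels in OIS than in proliferating cells. The median log2 ratio of OIS to proliferating cells was 0.28 (1.21-fold higher), against -0.01 over all features. Above 0 lay 22 members (49.6% of all features), with 20 intervals above (31.8% of all features) and 2 below 0 (31.3% of all features), and with total-count scaling, which lowered the median of all features to -0.23, 16 members lay above 0 and 14 below. RPS19 and RPS15A were at least 2-fold higher (12.1% of all features) and RPS26 at least 2-fold lower (11.4%), which does not exceed these shares. At the 1.5-fold limit 8 members were higher (21.2%), which is close to the share among all features. RPS19, with 461 and 714 counts, had a ratio of 1.29 (1.12 to 1.46), RPS15A, with 42 and 60, one of 1.16 (0.58 to 1.78), and RPS4X one of 0.73 (0.58 to 0.89). The lowest were RPS26 at -1.25 (-2.83 to -0.17), RPS27A at -0.59 (-1.18 to -0.07) and RPS27, a zinc-finger protein, at -0.23 (-1.13 to 0.55). RACK1 stood at 0.62 (0.57 to 0.67), RPS3 at 0.57 (0.45 to 0.69), RPS6 at 0.42 (0.29 to 0.55), FAU at 0.39 (0.26 to 0.52) and RPSA at 0.31 (0.03 to 0.58). The difference between both comparisons of the states is the same quantity as the difference between both GC7 responses.

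**Figure D4:**
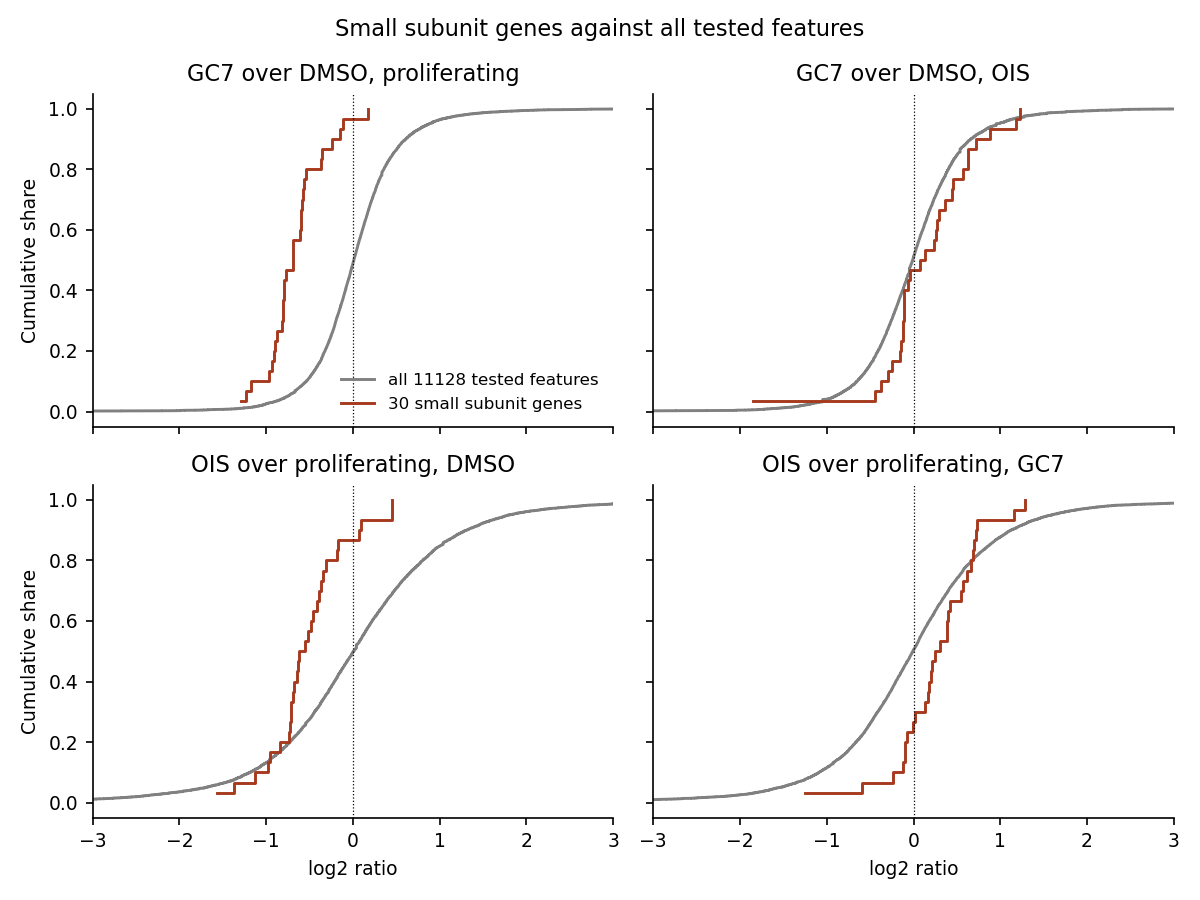
Cumulative share of genes (vertical) against the log2 ratio (horizontal, drawn from -3 to 3) in the 4 comparisons, red for the 30 small subunit genes and grey for all 11128 tested features. The red curve lies left of the grey one for GC7 in proliferating cells, where its median is -0.69, and close to it for GC7 in OIS cells, where its median is 0.10.

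The members' ratios spread over a narrower range than those of all features with as many counts in the GC7 comparison in proliferating cells, a difference that was not tested. There the SD of the log2 ratios was 0.26 over the 24 members with at least 400 counts and 0.45 over all 6326 such features, while the median half-width of a member's counting interval was 0.14. In OIS cells the SD was 0.41 over these members and 0.46 over all such features, with a median half-width of 0.22. Part of the spread among members therefore exceeds counting error. FAU took 3.004% of small subunit counts in proliferating cells with DMSO (2.80 to 3.22%), 4.201% with GC7 (3.95 to 4.46%), 2.84% in OIS cells with DMSO (2.51 to 3.21%) and 4.08% with GC7 (3.81 to 4.36%). Its share was thus higher with GC7 in both states, a measure that does not depend on how libraries are scaled. RPS23 took 3.05%, 3.45%, 1.56% and 2.38% in the same order, with the lowest share in OIS cells with DMSO.

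The additive model of treatment and state, fitted over all 4 libraries with edgeR's quasi-likelihood test, called no member for either factor. For GC7, 0.386% of all features had a Benjamini-Hochberg adjusted p under 0.05, and the lowest adjusted p of a member was 0.403 (RPS9, log2 fold change -0.64). An unadjusted p under 0.05 was found for 4 members, RPS9, RPS12, RPS2 and RPSA, all with lower levels. Of all features, 5.02% had such a p with a lower level and 9.66% in either direction. For state, 32.4% of all features were called, and the lowest adjusted p of a member in edgeR's test was 0.0588 (RPS23, log2 fold change -0.71). An unadjusted p under 0.05 was found for 2 members, RPS23 among them, both lower in OIS cells. Of all features, 19.9% had such a p with a lower level and 42.5% in either direction. The model averages each factor over the levels of the other, and its 1 residual degree of freedom holds the difference between the GC7 responses along with the spread between libraries. With the DESeq2 Wald test no member was called for either factor, against 0.359% of all features for GC7 and 19.1% for state. At an unadjusted p under 0.05 in that test there were 0 members for GC7 (3.38% of all features) and 1 for state (28.4%).

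Features of the proteins and mRNAs that did not enter the choice were set beside these ratios. Adjacent prolines, at which eIF5A is known to help the ribosome, occur in 8 of 31 small subunit proteins (25.8%) and in 10 of 44 large subunit proteins (22.7%) of the same protein list. RPS26 has 4 such pairs and RPS10 has 3, and RPS3, RPS3A, RPS13, RPS15, RPS25 and RPS27A have 1 each. The pair of RPS27A lies in the ubiquitin part of its fusion. The 7 tested members with adjacent prolines had a median log2 ratio of GC7 to DMSO of -0.25 in OIS and -0.35 in proliferating cells, and the 22 without had 0.25 and -0.79. RPS26, RPS10 and RPS27A are among the members with the fewest counts and have wide intervals. The medians of the 7 are the values of RPS13 in OIS cells (-0.42 to -0.08) and RPS15 in proliferating cells (-0.58 to -0.12). Which member stands in the middle depends in part on those with few counts. The 19 tested members with a TOP tract at the start base had a median GC7 ratio of -0.69 in proliferating and -0.04 in OIS cells. For the 5 without it the medians were -0.69, the value of RPS7 (-1.24 to -0.14), and 0.57, the value of RPS4X (0.36 to 0.79). In OIS cells these 5 ran from -1.86 to 1.23. Among them RPS7, RPS15 and RPS26 have a tract within 10 bases of the start, and the strict rule was chosen after the sequences were seen. RPS29 and RPS15, which have no tract at the annotated start base, had high ratios in OIS cells, and RPS26, which has none there either, had the lowest.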

How the data were processed

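Ribosome footprints of 4 libraries were assigned to genes of GENCODE version 19 by the authors with featureCounts 1.5.1, and the counts were deposited unnormalized as whole numbers. Before this the authors had aligned the reads to hg19, with STAR 2.5.3a by the submitters' processing notes. The command in the headers sets neither strand nor multi-mapping nor overlap. How the molecular identifiers were used is not stated in the sources read. Members and lists were chosen with earlier results of these data known.

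Nuclear features with at least 40 counts over the 4 libraries were kept. Counts were scaled with TMM (edgeR version 4.0.16, R version 4.3.3), and log2 ratios were taken with a prior count of 1. Intervals are 95% exact (Clopper-Pearson, on the counts of both libraries) from scipy version 1.17.1. For a difference of 2 ratios they are a normal approximation. Higher or lower needed a 2-fold ratio and an interval excluding equal levels, with no p-value. The additive model (treatment, state) used edgeR's quasi-likelihood test with Benjamini-Hochberg adjustment, or DESeq2 version 1.42.0. Its p-values borrow the spread of all features and do not measure replicate spread.

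Of the 32 members, 3 enter the counts and medians but are not reported here one by one. The others were named, with values for the 3 highest and 3 lowest of each comparison, every member called, and RPSA, RACK1, RPS6, RPS3, RPS27A and FAU. RPS4X, RPS7, RPS13, RPS15, RPS23, RPS24 and RPS28 appear elsewhere after their values were seen. The reference table paired 0 of 59792 genes with Ensembl numbers, so other pathway and marker genes were not analysed here. Pseudogenes and starts are from RefSeq (GRCh38.p14), coding lengths and prolines from the study's protein list.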

Additional observations from a re-analysis of the deposited data

Results flagged for a closer look

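GC7 and DMSO were compared in both states, and the members' median log2 ratio was -0.69 in proliferating and 0.10 in OIS cells. In OIS cells 16 members lay above 0 and 14 below. The median of the members' differences, OIS minus proliferating, was 0.87. In 12 of the 30 tested members the interval of the GC7 ratio lay below 0 in proliferating and above 0 in OIS cells, against 2.19% of all features. Among the 9 of them reported one by one, the difference was 1.25 for RPS3, 1.47 for RPS4X, 0.87 for RPS14, 1.23 for RPS15, 1.80 for RPS19, 1.18 for RPS21, 1.26 for RPS23, 2.12 for RPS29 and 0.87 for FAU. In 7 others the ratio of OIS to proliferating cells was below 0 in DMSO and above 0 with GC7, both intervals excluding 0 (0.602% of all features), with differences of 0.86 for RPSA, 1.11 for RPS2, 1.06 for RPS6, 1.25 for RPS12, 0.35 for RPS13, 0.85 for RPS16 and 0.53 for RPS24. With total-count scaling the ratio with GC7 turned below 0 in RPS13, RPS16 and RPS24. With 1 library per condition, none of these differences was tested.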

How the results depend on the processing

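No paired analysis was possible because each condition has 1 library, and for the same reason no replicate could be left out. Depth limits the members with few counts most. Other scalings, count filters, prior counts, fold limits, members and models were tried, of which leaving out RACK1, keeping members with at most 10 pseudogenes or at least 400 counts, and the robust quasi-likelihood fit were added after seeing the data. No median changed its sign. The following medians moved by more than the counting error of the summed counts, and the cause was not tested unless the setting itself leaves out members or shifts all features. For GC7 in OIS cells the median of 0.10 was 0.29 with total count, 0.16 with upper quartile, 0.26 with a filter of 400, 0.046 with a filter of 1, 0.26 in members without exon overlap and 0.28 in those with at most 10 pseudogenes. For GC7 in proliferating cells, -0.69 was -0.76 with a filter of 400, -0.61 with a filter of 1 and -0.78 without exon overlap. For OIS in DMSO, -0.58 was -0.97 with total count, -0.70 with upper quartile, -0.68 with a filter of 400, -0.62 with a filter of 1, -0.48 with a prior count of 5, -0.63 without exon overlap and -0.51 with at most 10 pseudogenes. For OIS with GC7, 0.28 was 0.053 with total count, 0.20 with upper quartile, 0.15 with a filter of 1, and 0.25 without exon overlap, without RACK1 and with at most 10 pseudogenes. The difference of the GC7 responses, 0.87, was 1.03 with total count, 1.05 without exon overlap and 1.06 with at least 400 counts. Total count shifted the median of all features too, by 0.18, 0.04, -0.38 and -0.23 in the 4 comparisons in this order, and the distance of the members from it stayed at 0.11, -0.70, -0.59 and 0.29.

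Each comparison had 3 members at least 2-fold higher or lower. With the 1.5-fold limit there were 7 for GC7 in OIS cells, 19 for GC7 in proliferating cells, 13 for OIS in DMSO and 10 for OIS with GC7. For GC7 in OIS cells there was 1 with a filter of 400, 1 without exon overlap and 0 with at most 10 pseudogenes. For GC7 in proliferating cells there was 1 with at most 10 pseudogenes. For OIS in DMSO there were 15 with total count, 5 with upper quartile, 5 with a filter of 400, 0 without exon overlap and 1 with at most 10 pseudogenes. For OIS with GC7 there was 1 with a filter of 400 and 1 with at most 10 pseudogenes. No share of all features is given for the changed scalings and filters, so these counts have no background. In the additive model, members called for state were 4 with total count (RPS23, RPS18 and RPS20 among them; 36.4% of all features), 2 with upper quartile (33.3%) and 2 with a filter of 1 (16.5%; RPS23 among both), all lower in OIS cells, and none under the other settings. No setting called a member for GC7, although without the other factor 0 of 11128 features were called. With mitochondrial counts included, the members' share was 0.579% in proliferating cells with DMSO and 0.302% in OIS cells with DMSO. Of 840 single-gene ratios recomputed, 49 left the counting interval and none of a called gene changed sign.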
